A study of Homo sapiens with 5 samples.

Results

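The genes described here are 10 genes of the circadian clock that carry or act through E-boxes: CLOCK, PER1, PER2, PER3, CRY1, CRY2, NR1D1, NR1D2, DBP and BHLHE40. They were taken by name, 10 of 20037 protein-coding genes, and a peak was counted for a gene if it lay in the gene body or within 1 kb of either gene end. All cells were of the established line MIA PaCa-2, which comes from a human pancreatic carcinoma, and each of the 5 groups was 1 library of chromatin immunoprecipitation followed by sequencing (ChIP-seq). MED17 and MED30, both subunits of the Mediator complex, and the transcription factor MYC were mapped in the parental line in normal culture. MYC was also mapped in MIA PaCa-2 cells with a Tet-on hairpin that targets MED30 (the shMED30 line), either untreated or given doxycycline for 3 days. Whether that line is 1 clone is not given in the sources used here. Mediator chromatin was fixed with disuccinimidyl glutarate and formaldehyde and MYC chromatin with formaldehyde alone, so Mediator and MYC lists differ in fixation as well as in target. No group had a replicate, so no difference between lists has a replicate check and no test was made.

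The circadian clock is a feedback loop of transcription. CLOCK pairs with BMAL1 and binds E-boxes, short DNA elements whose canonical form is CACGTG, at the genes of its own repressors, the PER and CRY proteins. NR1D1 and NR1D2 encode REV-ERB alpha and REV-ERB beta, nuclear receptors that repress BMAL1. DBP is an output factor that acts through D-boxes, and BHLHE40 (DEC1) is a repressor that competes for E-boxes. MYC, paired with MAX, binds the same CACGTG element, and Mediator passes signals from such factors to RNA polymerase II.

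The promoter sequences below show the E-boxes just before a RefSeq start at 6 of these genes. Each is the 250 bases before a start, from RefSeq (GRCh38.p14), written 5′ to 3′ on the strand of the gene, with capitals for CACGTG and for the noncanonical E-box CACGTT, which reads AACGTG on the other strand. For NR1D2, the start farther into the gene is shown.
NR1D2 (chr3:23945871-23946120, plus strand): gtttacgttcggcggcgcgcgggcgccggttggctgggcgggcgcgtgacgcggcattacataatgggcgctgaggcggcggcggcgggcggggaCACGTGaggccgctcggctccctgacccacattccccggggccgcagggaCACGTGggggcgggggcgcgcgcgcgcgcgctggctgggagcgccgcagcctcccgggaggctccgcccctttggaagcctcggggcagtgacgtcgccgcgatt
PER1 (chr17:8152405-8152654, minus strand): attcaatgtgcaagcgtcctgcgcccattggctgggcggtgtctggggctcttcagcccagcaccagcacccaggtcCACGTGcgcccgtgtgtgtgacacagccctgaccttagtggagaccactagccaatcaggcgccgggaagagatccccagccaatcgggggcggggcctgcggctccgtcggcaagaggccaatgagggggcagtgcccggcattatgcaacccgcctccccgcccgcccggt
PER2 (chr2:238288611-238288860, minus strand): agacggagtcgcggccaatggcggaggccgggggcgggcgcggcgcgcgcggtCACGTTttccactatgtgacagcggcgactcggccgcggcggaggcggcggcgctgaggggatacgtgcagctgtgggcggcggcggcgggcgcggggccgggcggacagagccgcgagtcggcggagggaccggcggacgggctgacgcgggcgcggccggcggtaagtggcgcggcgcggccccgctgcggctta
BHLHE40 (chr3:4979187-4979436, plus strand): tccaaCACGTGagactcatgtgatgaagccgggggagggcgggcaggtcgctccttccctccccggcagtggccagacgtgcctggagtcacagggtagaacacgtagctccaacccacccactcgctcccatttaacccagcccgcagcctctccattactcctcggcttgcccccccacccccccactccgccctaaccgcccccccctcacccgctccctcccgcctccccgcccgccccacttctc
NR1D1 (chr17:40100590-40100839, minus strand): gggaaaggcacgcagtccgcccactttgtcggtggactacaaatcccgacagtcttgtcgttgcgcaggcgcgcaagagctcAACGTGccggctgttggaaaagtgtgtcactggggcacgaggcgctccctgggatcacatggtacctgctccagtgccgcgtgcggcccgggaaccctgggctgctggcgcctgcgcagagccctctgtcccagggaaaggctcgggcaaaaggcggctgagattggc
CRY1 (chr12:107093550-107093799, minus strand): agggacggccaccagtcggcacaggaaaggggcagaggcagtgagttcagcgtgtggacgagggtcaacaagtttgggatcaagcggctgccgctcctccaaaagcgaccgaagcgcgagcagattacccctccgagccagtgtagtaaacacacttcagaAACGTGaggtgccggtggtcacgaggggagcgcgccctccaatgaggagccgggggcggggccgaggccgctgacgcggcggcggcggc

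In this table of promoter windows (250 bases before to 50 after a start) the 10 genes had 14 windows. CACGTG was found at 3 of the 10 genes, and 10.9% of 15843 protein-coding genes with a window have it. NR1D2 had a pair of them, at 155 and 105 bases before the inner start with 44 bases between, PER1 had 1 at 173 bases before its start and BHLHE40 had 1 at 245 bases. Only 0.851% of all 22199 windows held 2 or more copies. CACGTT or AACGTG, a form added after these sequences had been seen, was found at another 5 genes, PER2, CRY1, CRY2, NR1D1 and CLOCK, against 7.08% of all genes. The copy at PER2 lay 197 bases before the start. PER3 and DBP had neither form in their windows. The D-box, TTATGTAA or TTACGTAA on either strand, was found at PER2, PER3 and NR1D2, against 1.07% of all genes. AGGTCA on either strand, the core letters that REV-ERB and ROR receptors recognise, was found at PER1 and CRY2, against 15.2% of all genes. The median GC content was 70.8% in the 14 windows and 62.3% in all windows, and its part in these counts was not tested. A match is a match of letters in these windows, and sequence elsewhere in the genes was not searched.

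The parental lists held 12040 (MED30) to 14331 (MYC) peaks, and the MYC lists of the shMED30 line 7158 peaks untreated and 4621 after doxycycline. As a gauge of depth, the background pileup was recovered from the deposited fold and p of the peaks. It is the lowest local background among the peaks of a list, in fragments that overlap a position. It was 1.60 to 2.56 fragments in the 3 parental libraries, but 0.310 and 0.186 in the untreated and doxycycline libraries of the shMED30 line. The largest q was 0.0499 in the parental MYC list and 0.0993 and 0.0979 in the lists from the shMED30 line, which were thus called at a looser threshold.

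Mediator and MYC peaks lay at most of the 10 genes in parental cells. MED17 had a peak at all 10, against 52.8% of protein-coding genes; MED30 at 9, all but PER1, against 46.4%; and MYC at 8, all but PER1 and CRY1, against 44.2%. The same 8 genes were in all 3 parental lists, as were 35.5% of protein-coding genes. PER1 entered the MED17 count through a peak whose summit lay 1161 bp past the gene. With the summit required within the 1 kb limit, MED17 was at 9 of the 10, against 52.2% of protein-coding genes. The 10 genes ranged from 5.89 to 119.0 kb with a median of 35.7 kb, against 24.1 kb over protein-coding genes, and a longer gene has more room for a peak. With the count limited to peaks within 1 kb of a gene end, 8, 8 and 7 of the 10 had a MED17, MED30 and MYC peak, against 47.9%, 41.7% and 39% of protein-coding genes. Expression was not analysed here, and these shares include silent genes. Among peaks in the upper 50% of their list by fold, MED17 was at 6 of the 10 genes against 30.5% of protein-coding genes, MED30 at 7 against 27% and MYC at 7 against 24.9%.

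**Figure D1:**
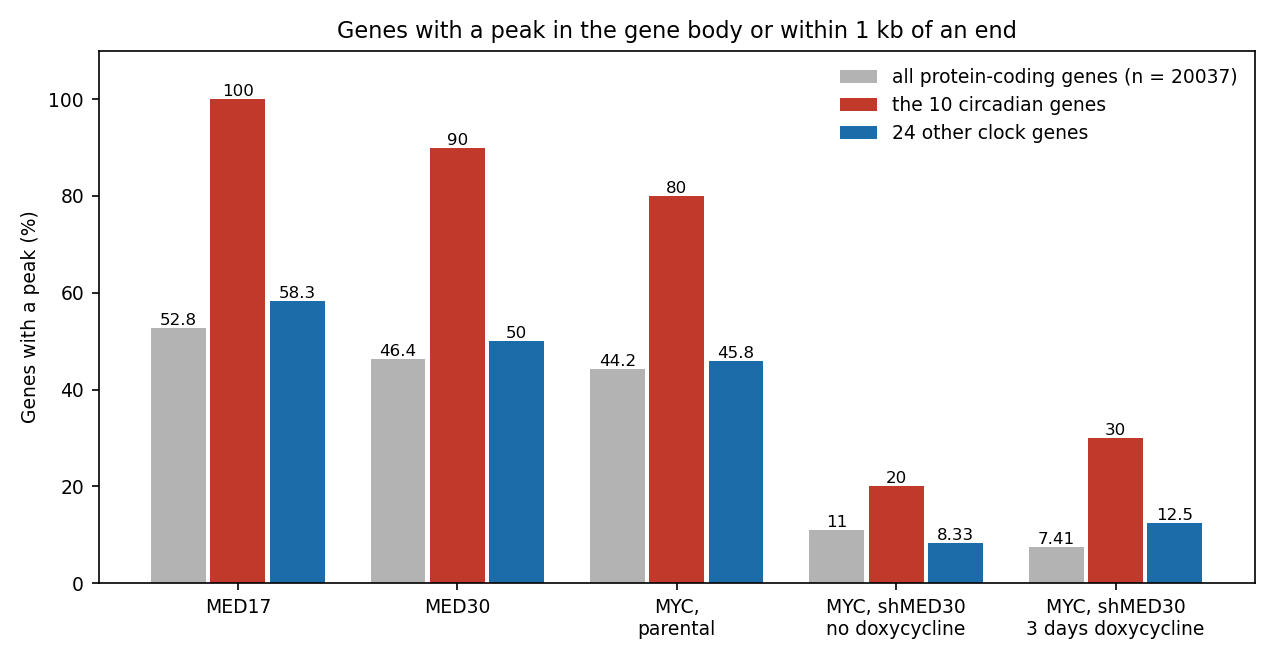
Percent of genes with a peak in the gene body or within 1 kb of an end, in each of the 5 lists, for all protein-coding genes (grey), the 10 circadian genes (red) and 24 other clock genes (blue). The red bars stand above the grey ones in the 3 parental lists (52.8%, 46.4% and 44.2% in grey), while the blue bars there lie close to the grey. In the shMED30 line the red bars stand for 2 genes without and 3 with doxycycline. They are at 20% and 30%, against 11% and 7.41% in grey and 8.33% and 12.5% in blue.

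Fold enrichment is the deposited ratio of summit pileup to local background, taken here as having 1 added to both. Local backgrounds at the counted peaks of the shMED30 line were below 1 fragment. There the added 1 weighs more, so those folds do not compare directly with parental ones. At the strongest peak of each gene, fold ranged from 4.04 to 8.08 for MED17, 3.72 to 6.21 for MED30 and 3.45 to 8.15 for parental MYC. The order of the genes differed between lists. CRY1 and CLOCK led the MED17 list, PER3, BHLHE40 and NR1D1 the MED30 list, and NR1D2, PER2 and NR1D1 the MYC list. Of the 8 genes with a MYC peak, 7 had a strongest peak above the median fold of that list (4.48). So did 7 of 9 for MED30 (list median 4.82) and 6 of 10 for MED17 (4.98). Over protein-coding genes, 4997 of 8847 with a MYC peak had a peak in the upper 50% of that list by fold. The counts were 5412 of 9293 for MED30 and 6111 of 10584 for MED17. The MED17 share at these genes was thus close to that of protein-coding genes with a peak.

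**Figure D2:**
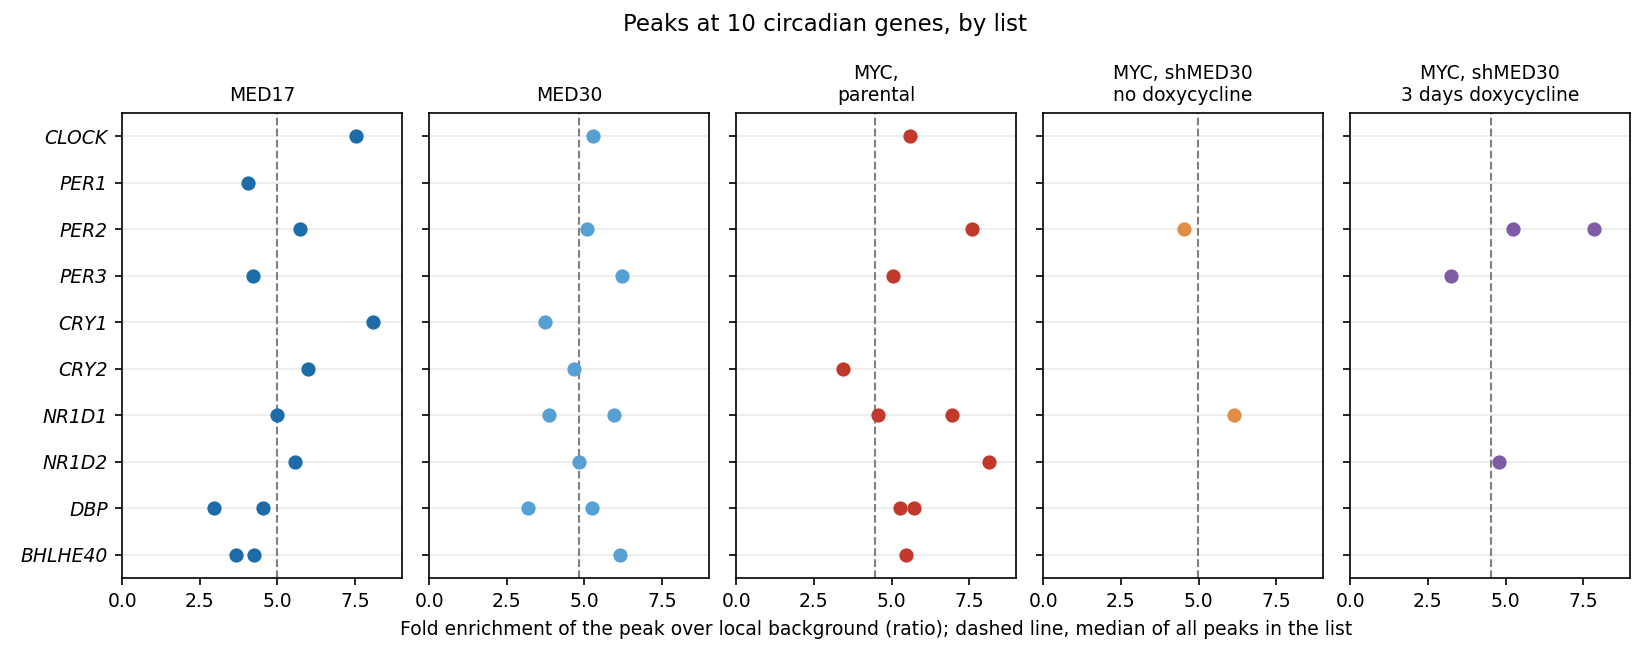
Fold enrichment (ratio, x axis) of each peak counted for the 10 genes (rows) in the 5 lists (panels), with 1 point per peak and the median of all peaks of the list as a dashed line. Points for parental MYC lie right of the line at all genes with a peak but CRY2 (3.45), and the lists from the shMED30 line are empty for most genes.

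CLOCK encodes the activating partner of the loop. Its gene spans 55427903 to 55546909 on chromosome 4 and is read from the upper end. All 3 parental lists had 1 peak each, with its summit between the 2 RefSeq starts, which are 977 bp apart. The folds were 7.54 for MED17 (percentile 93.4 of its list), 5.28 for MED30 and 5.58 for MYC. The MED30 and MYC summits were 19 bp apart, the shortest distance between these lists at any of the 10 genes, and the MED17 summit was 63 bp from that of MYC. The long noncoding RNA gene LOC124900704 lies within 1 kb of these peaks. Neither list from the shMED30 line had a peak at CLOCK.

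The PER genes, which encode the period repressors, differed from each other. PER1 (chromosome 17, 8140472 to 8152404) had no peak at its start in any list, although its promoter window holds CACGTG. The single peak counted for it, MED17 with a fold of 4.04, had its summit 1161 bp past the far end of the gene, beside the transfer RNA genes TRS-CGA1-1 and TRT-AGT5-1. A MYC peak of fold 4.28 overlapped its far side, 1298 bp past the gene and so outside the 1 kb limit, and is not among the counted overlaps. On the other side, the nearest summits before the PER1 start were 3.91 kb away for MED17 (fold 3.51), 4.49 kb for MED30 (4.81) and 3.95 kb for MYC (3.44).

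PER2 (chromosome 2, 238244044 to 238300065) carried all 3 proteins at its RefSeq start, which lies inside the annotated gene. MYC had a fold of 7.60 (percentile 91.0), with a summit pileup of 38 fragments on a local background of 4.13. MED17 had 5.74 and MED30 5.07. The Mediator summits lay 124 and 44 bp before the start and the MYC summit 381 bp before it. The CACGTT printed above was under all 3 peaks, 70.5 bp from the MED17 summit, 150.5 bp from that of MED30 and 186.5 bp from that of MYC, measured to the middle of the letters.

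PER3 (chromosome 1, 7784291 to 7845177) had 1 peak in each parental list, running across the first start with its summit before it. The folds were 4.21 for MED17, 6.21 for MED30, the highest of the 10 genes in that list, and 5.03 for MYC. The Mediator summits were 37 bp apart, at 552 and 589 bp before the start, and the MYC summit lay nearer, at 275 bp. The D-box of this window was 101.5 bp from the MYC summit.

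The CRY genes, which encode the cryptochrome repressors, also differed. At CRY1 (chromosome 12, 106991364 to 107093549) MED17 had its strongest peak among the 10 genes, with a fold of 8.08, percentile 95.9 of the list and a pileup of 47 fragments. MED30 overlapped it with a fold of 3.72 (percentile 14.3) and a summit 671 bp away. No MYC list had a peak at CRY1. The nearest one to the gene, of fold 4.00 in the parental list, lay 4.02 kb past its far end. Among protein-coding genes, 8.01% had both subunits without MYC. At CRY2 (chromosome 11, 45847118 to 45883244) all 3 proteins lay around the inner start, with folds of 5.98 for MED17, 4.65 for MED30 and 3.45 for MYC, the lowest MYC fold of the 8 genes. The MYC summit was 112.5 bp from the AACGTG of that window.

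The REV-ERB genes had the highest and the third highest MYC folds of the set. NR1D2 (chromosome 3, 23945286 to 23980617) had a MYC fold of 8.15 (percentile 93.1, pileup 44 on a background of 4.52), against 5.58 for MED17 and 4.83 for MED30. The MYC summit lay between the 2 starts, 203 bp before the inner one. It was 50.5 and 100.5 bp from the middles of the paired CACGTG printed above, and the MED30 summit was 37 bp from it. NKIRAS1, another protein-coding gene, lies within 1 kb of these peaks.

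NR1D1 (chromosome 17, 40092793 to 40100589) had 2 MYC peaks and 2 MED30 peaks. At the start the folds were 6.96 for MYC and 5.95 for MED30, and inside the gene 4.56 and 3.84. The MYC summit at the start fell within the AACGTG of the promoter, 1.5 bp from its middle, and the MED30 summit 99.5 bp from it. MED17 had 1 peak of fold 4.98, with its summit 761 bp after the start, between the MED30 summits at 66 bp before and 1306 bp after it. The pileup at this MYC summit, 56 fragments on a local background of 7.19, was the highest of the 10 MYC peaks counted for these genes.

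DBP, the output factor (chromosome 19, 48630030 to 48637379), had sites at its start and within the gene. In the gene, MYC (fold 5.28) and MED30 (5.23) had summits 2719 and 2768 bp after the start, 49 bp apart, and MED17 a weak peak (2.97) at 2527 bp. MED17 had a stronger peak (4.53) at 1317 bp, where no other list had one. At the start, MYC (5.73) and MED30 (3.19) had peaks and MED17 had none. Those peaks are within 1 kb of CA11 and SEC1P. Local background at the DBP peaks was 6.86 to 11.8 fragments, well above the lowest of each list, so a given fold there stands for more fragments. Exons were not analysed here.

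BHLHE40 (chromosome 3, 4979437 to 4985323) had a MED30 peak of fold 6.13 with its summit 154 bp before the start. The MYC peak, of fold 5.47, was 1216 bp wide with its summit 787 bp before the start. MED17 had 2 peaks, of fold 4.25 and 3.67, on either side. The CACGTG of this promoter was under the MED30 peak, 88.5 bp from its summit, and under the edge of the MYC peak, 544.5 bp from its summit. It was also under the MED17 peak of fold 3.67, 670.5 bp from its summit. These peaks are near BHLHE40-AS1, a long noncoding RNA gene. A further site in the 3 parental lists lay just outside the 1 kb limit, 1.29 to 1.51 kb past the gene, with folds of 3.21 for MED17, 5.03 for MED30 and 4.23 for MYC.

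**Figure D3:**
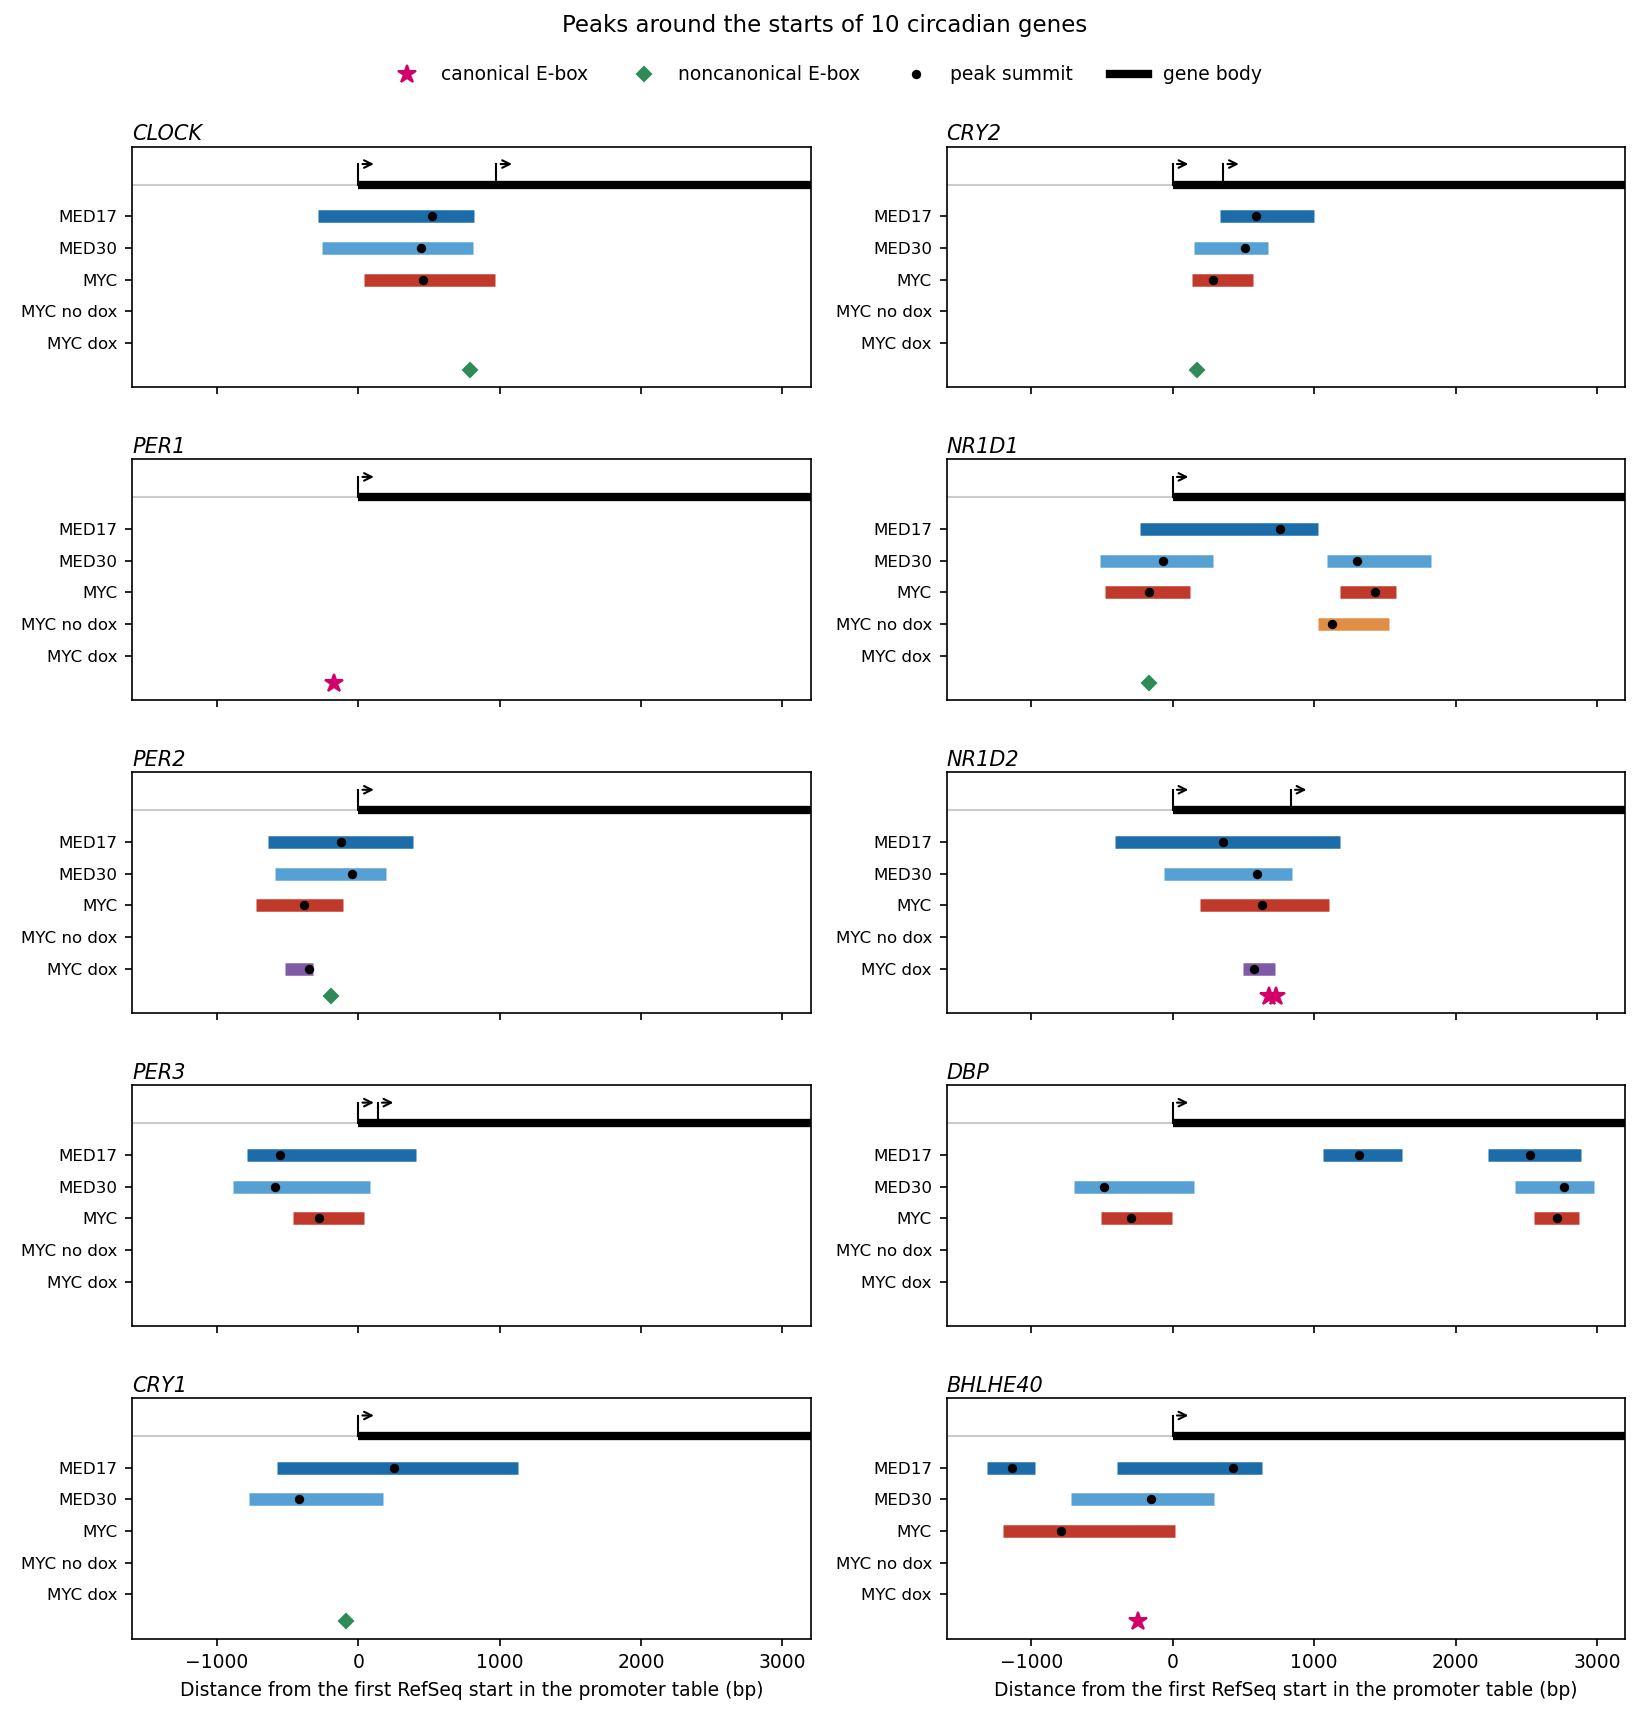
Peaks (bars, summits as black dots) of the 5 lists around the starts of the 10 genes, with distance from the first RefSeq start in bp on the x axis, genes drawn left to right, arrows at RefSeq starts, and E-box letters within the promoter windows as stars (CACGTG) or diamonds (CACGTT or AACGTG). PER1 has a star and no bar, CRY1 has Mediator bars alone, and bars of the shMED30 line appear at NR1D1, PER2 and NR1D2; peaks beyond the drawn range are left out.

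The first comparison set the Mediator subunits and MYC side by side at these genes. Overlapping MED17 and MED30 peaks were found at 9 of 10, against 41.8% of protein-coding genes. Overlapping MED30 and MYC peaks were found at 8, against 35%, and overlapping MED17 and MYC peaks at the same 8, against 38.2%. Part of each gap comes from how often the single peaks were present. Of protein-coding genes with a MED17 peak, 79.2% had an overlapping MED30 peak, beside 9 of 10 here. For MYC the share was 75.4% of genes with a MED30 peak, beside 8 of 9, and 72.3% of those with a MED17 peak, beside 8 of 10. The distance between summits had a median of 158 bp over 10 overlapping pairs of MED30 and MYC (range 19 to 633 bp) and of 277 bp over 9 pairs of MED17 and MYC (63 to 1215 bp), which are different sets of pairs and were not tested. By the closest pair of each gene, the MYC summit was nearer to MED30 at 5 genes, CLOCK, CRY2, NR1D1, NR1D2 and DBP. It was nearer to MED17 at PER2 (257 bp, against 337 bp to MED30), PER3 (277 against 314 bp) and BHLHE40 (351 against 633 bp). With summits within 250 bp required, 5 genes had the MED30 and MYC pair, against 24.6% of protein-coding genes, and 2, CLOCK and DBP, the MED17 and MYC pair, against 21.4%. For MED30 and MYC, the step from overlap to close summits thus went from 8 genes to 5, and over protein-coding genes from 7005 to 4938. For MED17 and MYC it went from 8 to 2, and from 7655 to 4294. The rule for close summits did not require the peaks to overlap, so these counts are not shares of the overlapping pairs. Whether summits were closer at these genes, given both peaks, was not tested.

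The second comparison concerned E-boxes and MYC. Over all promoter windows of protein-coding genes, 51.9% of those with CACGTG had a parental MYC peak (95% exact interval 49.6 to 54.2%), against 29.5% of those without (28.9 to 30.2%). For windows with CACGTT or AACGTG and no CACGTG the share was 36.4% (33.6 to 39.3%). For MED17 the shares with and without CACGTG were 48.9% and 37.8%, and for MED30 46.7% and 35.9%. These intervals cover counting error only. They treat windows as independent, although a gene can have several windows under the same peak. The median GC content was 65.3% in windows with CACGTG, 62% in those without and 59.3% in those with CACGTT or AACGTG alone. Its part in these shares was not tested. Of the 3 circadian windows with CACGTG, those of NR1D2 and BHLHE40 had a MYC peak and that of PER1 had none. Of the 5 with CACGTT or AACGTG, those of PER2, CLOCK, CRY2 and NR1D1 had one and that of CRY1 had none. PER3 and DBP had a MYC peak over a window with neither form. Their windows held CACGCG, which differs from CACGTG by 1 base. Variants with 1 changed base (CACGCG or CATGTG on either strand) were at 27.6% of protein-coding genes with a window. A MYC peak over a promoter window was thus found at 8 of the 10 genes, against 36.6% of protein-coding genes.

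**Figure D4:**
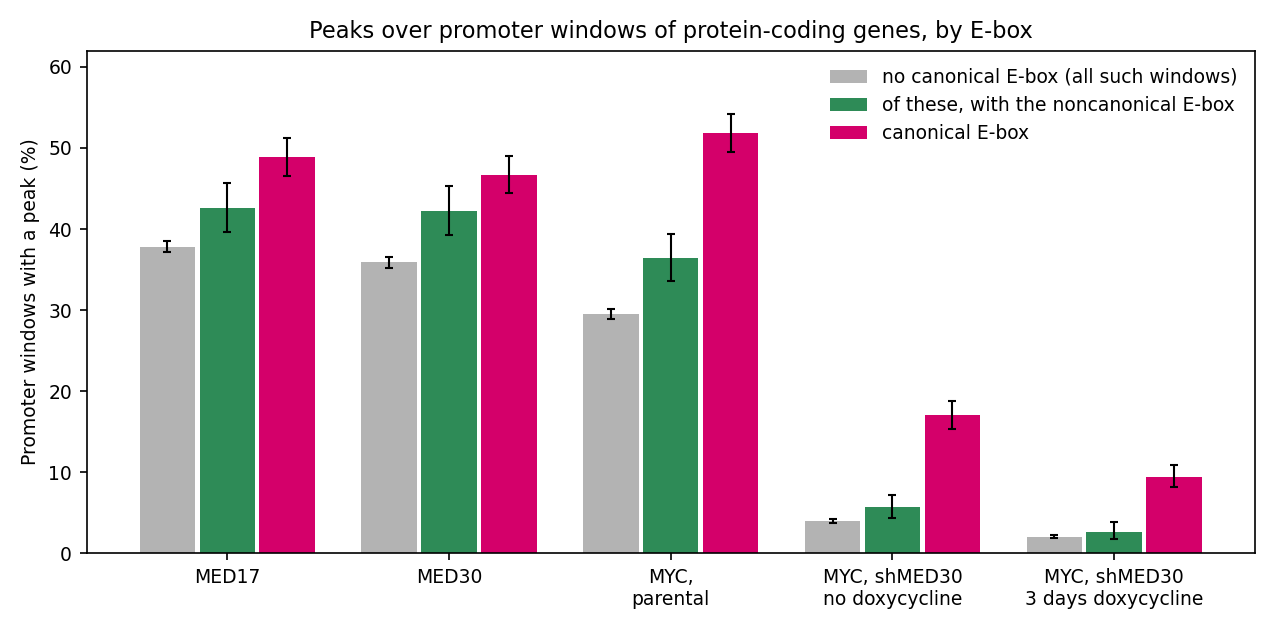
Percent of promoter windows of protein-coding genes with a peak in each list, for windows without CACGTG (grey), the part of these with CACGTT or AACGTG (green) and windows with CACGTG (pink), with exact 95% intervals as error bars. In the parental MYC list the pink bar stands at 51.9% and the grey at 29.5%.

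The third comparison set the 2 MYC lists of the shMED30 line side by side. Without doxycycline, PER2 and NR1D1 had a peak, 2 of 10 genes against 11% of protein-coding genes. With it, PER2, PER3 and NR1D2 had one, 3 of 10 against 7.41%. Only 1 of the 8 genes with a parental MYC peak, NR1D1, had an overlapping peak without doxycycline, as did 21.4% of protein-coding genes with a parental peak. With doxycycline it was PER2 and NR1D2, against 12.3%. MED30 levels were not analysed here, and the knockdown was not checked.

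At NR1D1 the peak without doxycycline had a fold of 6.14 and a summit pileup of 10 fragments (exact Poisson 95% interval 4.80 to 18.4, for counting error only, as in the other intervals of pileups). It lay over the inner MYC site of the parental cells, 307 bp from its summit, and not over the promoter. No peak was listed at NR1D1 with doxycycline. At the PER2 start a peak was listed with doxycycline, with a fold of 5.24 and a pileup of 6 (2.20 to 13.1), its summit 34 bp from the parental one. At NR1D2 the peak with doxycycline had a fold of 4.78 and a pileup of 5 (1.62 to 11.7), its summit 60 bp from the parental one and 110.5 bp from the nearer CACGTG. The list without doxycycline had no peak at either place, although its background pileup was the higher, 0.310 against 0.186. The smallest pileup was 4 fragments without and 3 with doxycycline, and the median 8 and 6. The NR1D1 peak was thus above the median of its list, the PER2 peak at it and the NR1D2 peak below it. With 1 library each, a site just under the threshold in 1 list cannot be told from an absent one.

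Both lists from the shMED30 line also had a peak 7.77 and 7.87 kb before the PER2 start, within the annotated gene. The long noncoding RNA gene LOC112268433 lies within 1 kb of these peaks, and also of the peaks at the PER2 start. The fold was 4.54 without doxycycline (pileup 5, 1.62 to 11.7) and 7.84 with it (pileup 9, 4.12 to 17.1), on local backgrounds of 0.321 and 0.276. The pileups are not scaled for depth and were not compared. No parental list, MYC or Mediator, had a peak there. This was the only place among the 10 genes where both lists had overlapping peaks. The remaining peak with doxycycline, 56.7 kb into PER3, had a fold of 3.23, a pileup of 3 and a q of 0.0909, and was absent with q limited to 0.05, a limit added after its value was seen.

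The other clock genes, 24 in number, were closer to the background of all genes. MED17 had a peak at 14 of 24, MED30 at 12 and MYC at 11, and 9 were in all 3 parental lists. They included TEF, a D-box factor related to DBP, NFIL3, which opposes D-box factors, the kinase gene CSNK1D and the ubiquitin ligase gene FBXW11. TIMELESS and its partner TIPIN, NAMPT, which acts in NAD synthesis, and the NAD-dependent deacetylase gene SIRT1 were also among them. The highest MYC folds among these 9 were at NAMPT (8.05), SIRT1 (6.80) and CSNK1D (6.17). BMAL1, the partner of CLOCK, had no peak in any list, nor had BMAL2, RORB, HLF, CIART, FBXL21P and HNF4A. NPAS2, which can replace CLOCK, had a MYC peak (4.67) and no Mediator peak. In the shMED30 line, NAMPT had a MYC peak both without (6.93) and with doxycycline (6.51), CSNK1D without it (4.44), and CSNK1E (3.63) and RORA (4.22) with it, which makes 2 and 3 of 24, against 11% and 7.41% of protein-coding genes. FBXL21P is a pseudogene and is not part of the protein-coding background.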

How the data were processed

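Peak lists of 5 ChIP-seq libraries were used, 1 per group. Per the submitters' processing notes, the authors used Trim Galore, Bowtie2, deepTools and MACS2 with the hg38 build. No tool version or input control is given in the sources used here. Every deposited list gives a fold enrichment (a ratio) per peak, the authors' −log10 p and −log10 q, a score of 10 times −log10 q, and the summit position. These are the authors' values and were used to describe or filter peaks within a list.

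Gene bounds and promoter windows came from RefSeq tables for GRCh38.p14. Strand and starts came from the promoter table, which held all 10 genes and 19 of the 24 other clock genes. Counts used Python 3.11.15 with pandas 2.3.3 and SciPy 1.17.1. A peak was counted with at least 1 bp shared. Summit pileup and local background were solved from fold and p, taking fold as (pileup + 1)/(background + 1) and p as a Poisson tail; p was matched to 0.002 or better on the log10 scale for 99.6% to 99.9% of the peaks of each list. Overlap, pileup and motif code was tested on simulated data. All 10 genes are named, and other clock genes if in all 3 parental lists, in none of the 5, or in a list of the shMED30 line; NPAS2 was added after its values were seen. Some genes that this rule takes are not reported here. The genes and lists were chosen with earlier results of these data known. Alternatives were other windows, thresholds, overlap rules and list lengths.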

Additional observations from a re-analysis of the deposited data

How the results depend on the processing

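No paired analysis was possible because each group has 1 library, and none could be left out in turn. Of the alternatives tried on counts, 74 stayed within 1.5 times of the reported count and 22 did not. The 10 genes: with the upper 50% of peaks by fold, 6 had a MED17 peak and 1 a MYC peak without doxycycline (30.5% and 7.6% of protein-coding genes); with a −log10 q of at least 5, 1 had a MYC peak without and 1 with doxycycline (5.08% and 2.02%); at gene ends only, 0 and 1 did (8.55% and 4.71%). Limited to the strongest peaks by p, as many as in the shortest MYC list, parental MYC was at 5 of the 10, against 16.1% of protein-coding genes. With summits within 250 bp, MED30 with MYC were at 5 genes (24.6%), MED17 with MYC at 2 (21.4%), and parental MYC with MYC without doxycycline at 0 (8.37%). With a reciprocal overlap of at least 50%, MED17 with MYC were at 3 (21%), parental MYC with the doxycycline list at 0 (0.988%), and the 2 lists of the shMED30 line at 0 (2.88%). CACGTG or a variant with 1 changed base (CACGCG or CATGTG on either strand) was at 8 genes, against 34.6% of protein-coding genes. Either CACGTG or the noncanonical form (CACGTT on either strand) was at 8. Of protein-coding genes with a window, 10.9% had CACGTG and 7.08% the noncanonical form, and the share with either was not computed. The noncanonical form and a common q of 0.05 were chosen after seeing the data. The 24 other clock genes: with the upper 50% by fold, 8 had MED17 (30.5%), 7 MYC (24.9%), and 1 MYC without (7.6%) and 1 with doxycycline (4.59%); with a −log10 q of at least 5, 6 had parental MYC (31.7%), 1 MYC without and 1 with doxycycline. With a 5 kb limit, all 10 circadian genes were in each of the 3 parental lists, against 55.8% (MED17), 49.7% (MED30) and 47.6% (MYC) of protein-coding genes. With all annotated genes as background, the share with a peak fell to 24.1% (MED17), 21.4% (MED30), 20.1% (parental MYC), 5.05% (untreated shMED30 line) and 3.38% (with doxycycline). Beyond the construction of each alternative, the cause of these changes was not tested. Both lists from the shMED30 line had the lowest background pileups, which limits what they can show.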
